A study of Rattus norvegicus with 8 samples.

Results

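The growth hormone and IGF1 axis of the liver was followed here through 10 genes, Ghr, Stat5b, Socs2, Igf1, Igfals, Igfbp1, Igfbp2, Igfbp3, Igfbp4 and Insr, in weanling male rats whose mothers had been given a contaminant mixture. Every probe assigned to 1 of these genes was taken, which gave 15 of the 30367 probes on the array, and 10 of its 15168 named genes. Growth hormone from the pituitary binds its receptor on hepatocytes, and the receptor signals through the kinase JAK2 to the transcription factors STAT5A and STAT5B. Among the genes that these switch on are Igf1, which encodes the circulating growth factor, Igfals, whose protein holds IGF1 in a stable complex with IGFBP3, and Socs2, which feeds back to dampen the signal. The liver comes under this control around weaning, when fetal features such as high Igf2 and Igfbp2 are being lost, and insulin is a further regulator that holds Igfbp1 down after a meal.

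The samples were livers of male Sprague-Dawley rats taken on postnatal day 21. Each of the 8 arrays carried RNA pooled from 2 pups, so that the 8 pups of a group gave 4 pools. Control pups (pools 5 to 8) came from dams given corn oil alone. Mixture pups (pools 1 to 4, labelled 0.5MAhR) came from dams given, in corn oil, a mixture of methyl mercury, PCBs and organochlorine pesticides at 0.5 mg/kg/day, to which ligands of the dioxin receptor, the aryl hydrocarbon receptor (AhR), had been added. These were dioxins, dibenzofurans and non-ortho PCBs, and they brought the total to a dioxin equivalent of 6.3 ng/kg/day. Dosing ran from gestation day 0 to postnatal day 20, and the pups of both groups stayed with their birth mothers. It was the dams that were dosed, pools were formed at random within a group, and the labels used here do not tie pools to litters, so p-values measure the spread between pools and may be too small where pools share a litter.

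On every array the Cy5 channel carried liver RNA and the Cy3 channel a common reference, universal rat RNA of 14 cell lines. Values are the log2 ratio of liver over reference, so a difference of 1 is a doubling. Because the dyes were never swapped, dye bias is part of every level but is common to both groups. The median Cy5 signal of an array was 81 to 94 units over a background of 68 to 73. The 8 arrays shared 1 slide, in 2 columns of 4 with 2 control and 2 mixture arrays each. Arrays in the same column correlated with an r of 0.98 to 0.991 over tested probes and arrays in different columns with 0.936 to 0.961, and the column was therefore a term in the fit. Cyp1a1, the classical AhR target, was 0.90 ± 0.53 in controls and 4.93 ± 0.59 in mixture pools (SD, n = 4), a difference of 4.04 (SE 0.31, limma adjusted p = 0.00314), and all mixture pools were above all controls.

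Upstream sequence is shown for Igfbp1 and Igfbp2, the member genes with the widest spread between pools within a group and slide column, since both hold letters of the AhR recognition core and Igfbp1 also carries those of its textbook insulin response element. RefSeq promoters of assembly GRCr8 were matched by symbol for 9 of the 10 genes. Each line gives the 250 bases before the annotated start, 5′ to 3′ on the gene's strand, with the matches named after it in capitals.
Igfbp1 promoter, GRCr8 chr14:86261027-86261276, + strand: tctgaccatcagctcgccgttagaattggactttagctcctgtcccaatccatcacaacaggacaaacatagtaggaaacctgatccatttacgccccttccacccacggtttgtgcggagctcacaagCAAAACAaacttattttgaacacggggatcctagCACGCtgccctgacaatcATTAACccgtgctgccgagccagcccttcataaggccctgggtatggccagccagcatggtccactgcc
Igfbp2 promoter, GRCr8 chr9:81864561-81864810, + strand: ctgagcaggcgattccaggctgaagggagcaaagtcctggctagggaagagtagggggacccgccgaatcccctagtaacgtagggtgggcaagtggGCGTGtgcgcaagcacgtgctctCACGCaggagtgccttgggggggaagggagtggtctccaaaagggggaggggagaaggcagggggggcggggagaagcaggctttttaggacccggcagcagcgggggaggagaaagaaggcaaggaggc
The capitals mark GCGTG, the core of the xenobiotic response element bound by the AhR and its partner ARNT; CAAAACA, found in insulin response elements that forkhead factors bind; and GTTAAT, a half-site of the hepatocyte factor HNF1. A match on the other strand reads as the reverse complement. In Igfbp1 the first base of CAAAACA lay 121 bases before the start, GCGTG on the other strand 87 bases and GTTAAT on the other strand 69 bases before it. In Igfbp2 GCGTG occurred at 153 bases before the start and, on the other strand, at 130 bases. On both strands together, GCGTG was present in 25.9% of all 33465 promoters and in 4 of the 9 member promoters (Igfbp1, Igfbp2, Igfbp3 and Insr). CAAAACA was present in 5.46% of all promoters and in 2 members (Igf1 and Igfbp1), and GTTAAT in 6.45% and in 1 member. TTCNNNGAA, the STAT5 motif, was present in 7.67% of all promoters and in no member within this window. Such matches describe letters only, not binding. In the RefSeq gene order, Igfbp1 and Igfbp3 are neighbours, Igfbp2 lies next to Igfbp5, and Stat5b next to Stat5a.

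No gene of the axis passed the test between mixture and control. Of the 15 probes, 13 from 9 genes were tested, because testing required a Cy5 signal well above background on 3 or more arrays in either group. None of the 13 had a limma adjusted p under 0.05 with adjustment over all 11406 tested probes, against 0.0789% of all tested probes (9 probes, all higher in mixture pools). The tested Insr probe entered the test only through the control group, where it is higher, so it is left out of the next counts. Of the other 12 probes, 2 were lower in mixture pools at an unadjusted p under 0.05, both of them Igfbp2 probes, against 2.86% of all tested probes, and none was higher, against 3.52%. The median difference of the 12 was -0.077 (mixture minus control, log2 ratio), beside -0.0076 for all tested probes. The median size of the difference was 0.13 beside 0.066. For no member probe did the 4 mixture pools lie wholly outside the 4 controls, against 1.29% of all tested probes.

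**Figure D1:**
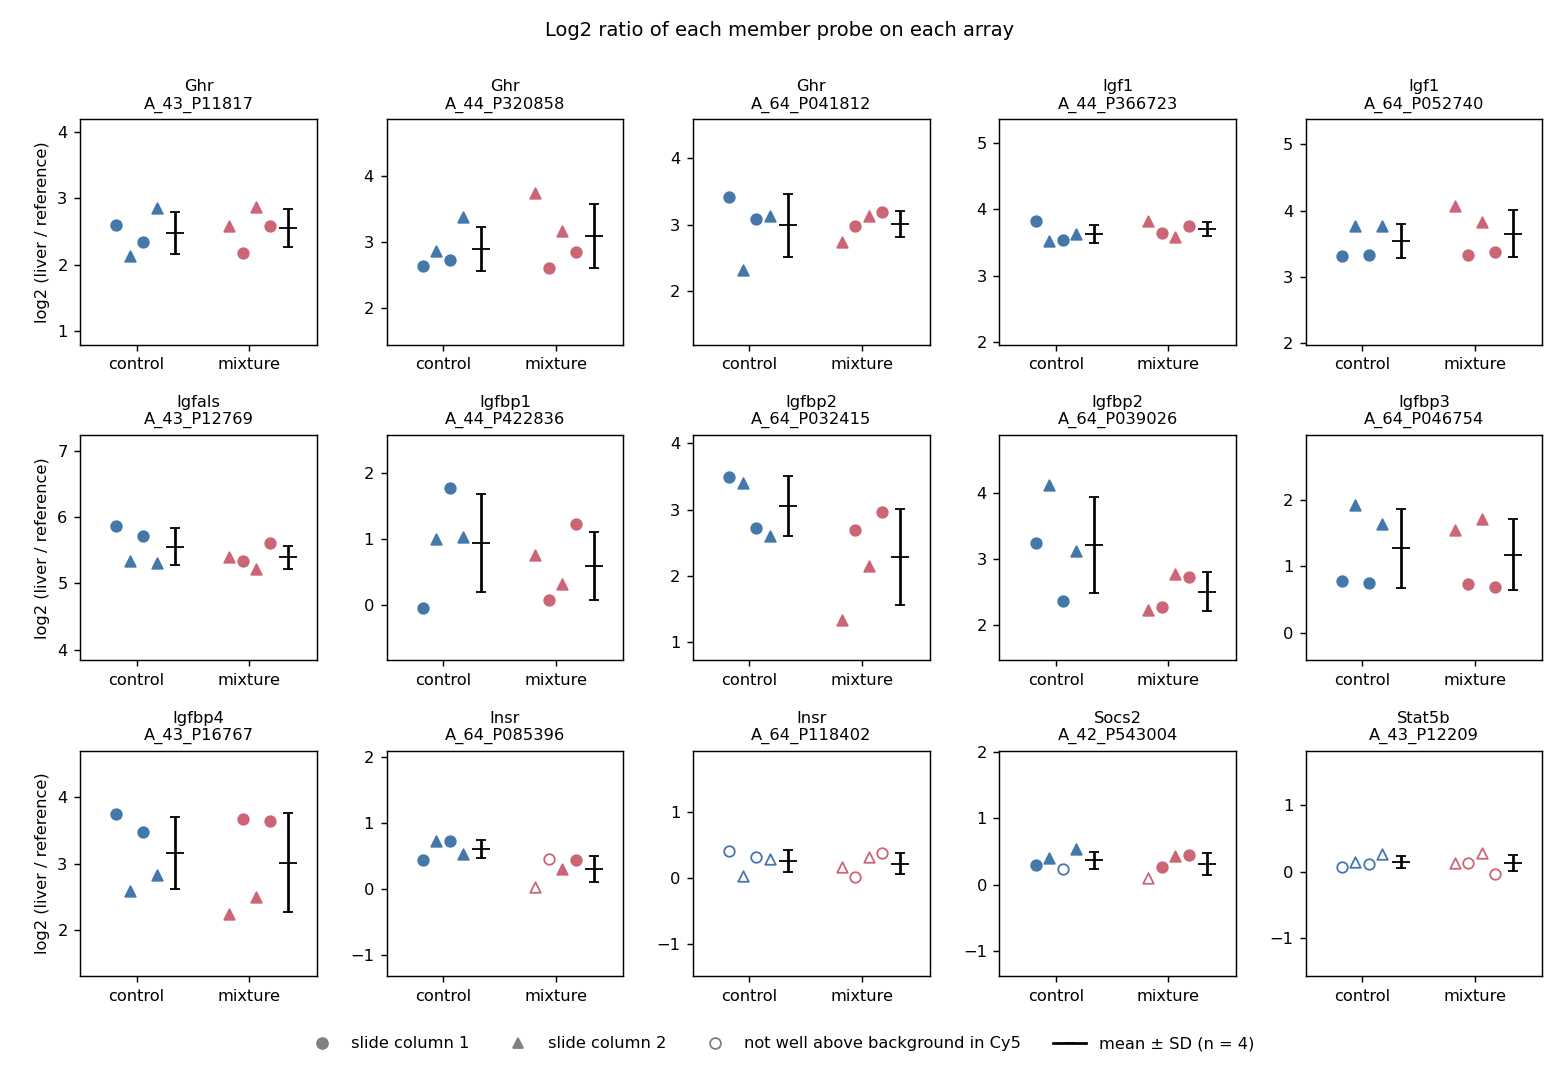
Log2 ratio of liver over reference (y axis) of each of the 15 member probes on each array, control pools in blue and mixture pools in red, circles for slide column 1, triangles for column 2, open symbols where Cy5 was not well above background, and bars for mean ± SD (n = 4). All panels span the same number of log2 units. The mixture pools are lower on average at both Igfbp2 probes with 1 or more controls among them, and the columns part at Igfbp3 and Igfbp4.

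Ghr, the growth hormone receptor through which the liver senses the hormone, did not differ detectably at any of its 3 probes. At probe A_44_P320858 the controls measured 2.63, 2.86, 2.73 and 3.38 (pools 5 to 8) and the mixture pools 3.73, 2.61, 3.17 and 2.85 (pools 1 to 4). The highest pool was mixture pool 1, the lowest mixture pool 2, and the control range lay inside that of the mixture pools. The difference was 0.19 (SE 0.15, limma adjusted p = 0.90), with a 95% interval from 1.11-fold lower to 1.45-fold higher. At A_43_P11817 the means were 2.48 ± 0.32 in controls and 2.55 ± 0.28 in mixture pools, and at A_64_P041812 they were 2.99 ± 0.47 and 3.00 ± 0.20 (SD, n = 4), with adjusted p-values of 0.96 and 0.99. The signs of these small differences were not stable, since without control pool 6, the lowest control at both probes, they became -0.10 and -0.19. Of the 3 probes, A_43_P11817 and A_64_P041812 moved together from array to array (r = 0.96 over 8 arrays after the column means were taken out), while A_44_P320858 followed them with r of 0.48 and 0.35. Arrays share pools across probes, so these correlations are descriptions.

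Stat5b, the transcription factor that carries the growth hormone signal to the nucleus, could not be compared. Its probe was well above background in Cy5 on 0 of 8 arrays and in Cy3 on 8 of 8, with net liver signals of 13.8 to 25.5 units above local background. Socs2, the STAT5 target that restrains receptor signalling, was close to background as well. Its probe, printed in 10 spots, passed on 3 control and 3 mixture arrays. Socs2 measured 0.30, 0.40, 0.23 and 0.53 in control pools 5 to 8 and 0.10, 0.26, 0.43 and 0.44 in mixture pools 1 to 4. The ranges overlapped except for mixture pool 1, the lowest of all 8. The difference was -0.059 (SE 0.099, limma adjusted p = 0.95), and it was 0.036 without mixture pool 1.

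Igf1, the growth factor that the liver releases under growth hormone, was bright on every array and nearly equal in the groups. At probe A_44_P366723 its net Cy5 signal was 34970 to 57940 units. The log2 ratios there were 3.83, 3.52, 3.54 and 3.63 in control pools 5 to 8 and 3.82, 3.64, 3.59 and 3.76 in mixture pools 1 to 4. The highest and the lowest pool were both controls, and all 8 lay within a 1.24-fold range. The difference was 0.070 (SE 0.090, limma adjusted p = 0.93), with a 95% interval from 1.096-fold lower to 1.21-fold higher. The other probe, A_64_P052740, designed on another Igf1 transcript record, gave 3.54 ± 0.26 in controls and 3.65 ± 0.36 in mixture pools (SD, n = 4), a difference of 0.11 (SE 0.074, adjusted p = 0.89). Within slide columns 1 and 2 the difference was 0.011 and 0.13 at the first of these probes and 0.029 and 0.18 at the second. The size at A_44_P366723 depended on the processing. It was 0.15 with arrays only centred on their median and 0.18 with processed signals. Over all alternatives it ran from 0.011 (without mixture pool 1) to 0.18 (Cy5 alone).

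Igfals, which encodes the acid-labile subunit of the circulating IGF1 complex and is made by hepatocytes under growth hormone, measured 5.86, 5.34, 5.71 and 5.31 in control pools 5 to 8. The mixture pools measured 5.40, 5.33, 5.22 and 5.62. The slide columns set most of this order, with control pools 5 and 7 of column 1 on top and the mixture pools inside or just under the control range. The difference was -0.16 (SE 0.096, limma adjusted p = 0.86), made up of -0.31 in column 1 and -0.018 in column 2. Without mixture pool 2 it was -0.079, without control pool 5 it was -0.11, and without mixture pool 1 it was -0.23 (unadjusted p = 0.0396, adjusted p = 0.69). The Cy3 reference of this ratio was weak, with net signals of 29.5 to 43.5 units. It was well above background on 7 of 8 arrays, but not on that of mixture pool 2. Igfbp3, the main carrier of IGF1 in serum and in liver chiefly a product of non-parenchymal cells, had means of 1.27 ± 0.60 and 1.17 ± 0.53 (SD, n = 4) in control and mixture pools. With the column in the fit the Igfbp3 difference was -0.095 (SE 0.080, adjusted p = 0.91), and its 95% interval ran from 1.21-fold lower to 1.06-fold higher.

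Igfbp2, a binding protein that is abundant in fetal liver and declines after birth, had the largest differences of the axis, and both of its probes gave them. At probe A_64_P032415 the control pools 5 to 8 measured 3.49, 3.41, 2.72 and 2.61, and the mixture pools 1 to 4 measured 1.34, 2.69, 2.15 and 2.97. Mixture pools 1 and 3 were below every control, whereas mixture pools 2 and 4 lay among controls. The means were 3.06 ± 0.46 and 2.29 ± 0.72 (SD, n = 4), a difference of -0.77 (SE 0.29, unadjusted p = 0.0238, limma adjusted p = 0.69), or 1.71-fold lower in mixture pools. At A_64_P039026 the controls measured 3.24, 4.12, 2.36 and 3.12 and the mixture pools 2.24, 2.28, 2.78 and 2.73. Here 3 controls were above all mixture pools and control pool 7 was among them. The difference was -0.70 (SE 0.29, unadjusted p = 0.0355, adjusted p = 0.73), or 1.63-fold lower.

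Both Igfbp2 probes were lower in each slide column, as were 5 of the 12 tested member probes without Insr, against 27% of all tested probes. The direction was the same in both columns at 8 of 12, against 51.7%. In column 1 the Igfbp2 probes differed by -0.28 and -0.29, and in column 2 by -1.26 and -1.11, with 2 pools against 2 and no test of the difference between columns. Control pool 6 and mixture pool 1, both in column 2, carried much of it. Without control pool 6 the differences were -0.51 and -0.42 (unadjusted p = 0.0743 and 0.106), and without mixture pool 1 they were -0.51 and -0.51 (unadjusted p = 0.071 and 0.113, all from limma). Both probes lay among the most variable of the array, with a residual SD within groups at the 99.1 percentile of tested probes. After the column means were taken out they followed each other closely (r = 0.98 over 8 arrays). Group means were left in, so the group difference is part of this r and not only the spread between pools. The Cy3 reference differed between groups by only -0.025 and -0.017 at these probes.

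**Figure D2:**
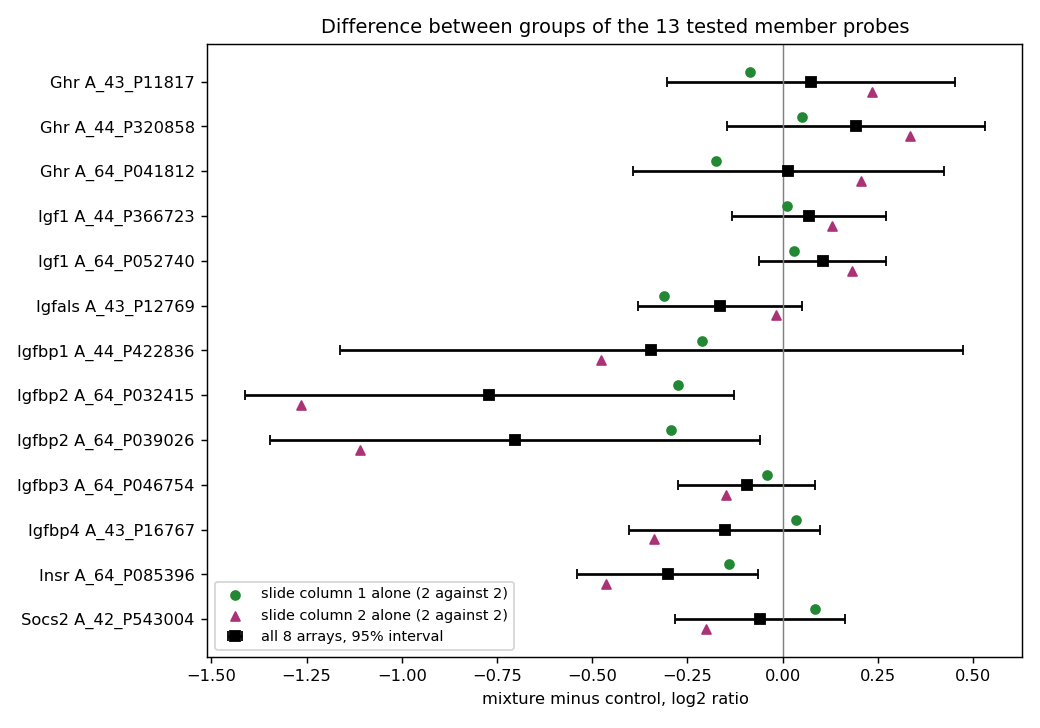
Difference between mixture and control pools in log2 ratio (x axis) for each of the 13 tested member probes, black squares with the 95% interval from all 8 arrays, green circles for slide column 1 alone and purple triangles for column 2 alone. The intervals of both Igfbp2 probes lie below 0 before adjustment, with the column 2 value larger in size. The Insr interval does too, but that probe passed the filter on background only through the control group.

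Igfbp1, the binding protein that insulin suppresses and fasting induces, had the largest residual SD of the tested member probes, 0.70 in log2 ratio. The control pools 5 to 8 measured -0.035, 0.99, 1.77 and 1.03 and the mixture pools 1 to 4 measured 0.75, 0.077, 0.31 and 1.23. The lowest and the highest pool were both controls, a 3.49-fold range, and all 4 mixture pools lay between them. The difference was -0.34 (SE 0.36, limma adjusted p = 0.92), with a 95% interval from 2.24-fold lower to 1.39-fold higher. Without control pool 7 it was -0.010, and without control pool 5 it was -0.73 (unadjusted p = 0.0248, adjusted p = 0.77). The residual SD of this probe was at the 99.5 percentile of tested probes.

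The order of the pools in Igfbp1 resembled that of some fasting-responsive transcripts. With column means taken out, Igfbp1 had an r of 0.79 with Pck1 and also 0.79 with Sds over the 8 arrays, 0.68 with G6pc1 and -0.49 with Fasn. Fgf21, a fasting hormone of the liver, and Angptl4, which fasting also induces, had an r of -0.48 and -0.40. Pck1 and G6pc1 encode enzymes of gluconeogenesis, Sds serine dehydratase and Fasn fatty acid synthase. These genes were picked after all 11 tested genes of the insulin and fasting list had been seen, whose r ran from -0.49 to 0.79. Of 6937 genes searched, 0.259% had an r over 0.9 with Igfbp1, above any gene of this list. The share of all genes reaching 0.79 was not counted. Relative to its column's mean, control pool 7 was 1.01 in Igfbp1, 0.20 in Pck1 and 0.45 in Sds. Control pool 5 was -0.80, -0.25 and -0.34 in the same order. The feeding state of the pups at sampling is not stated in the labels, and its part in this spread was not tested.

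**Figure D3:**
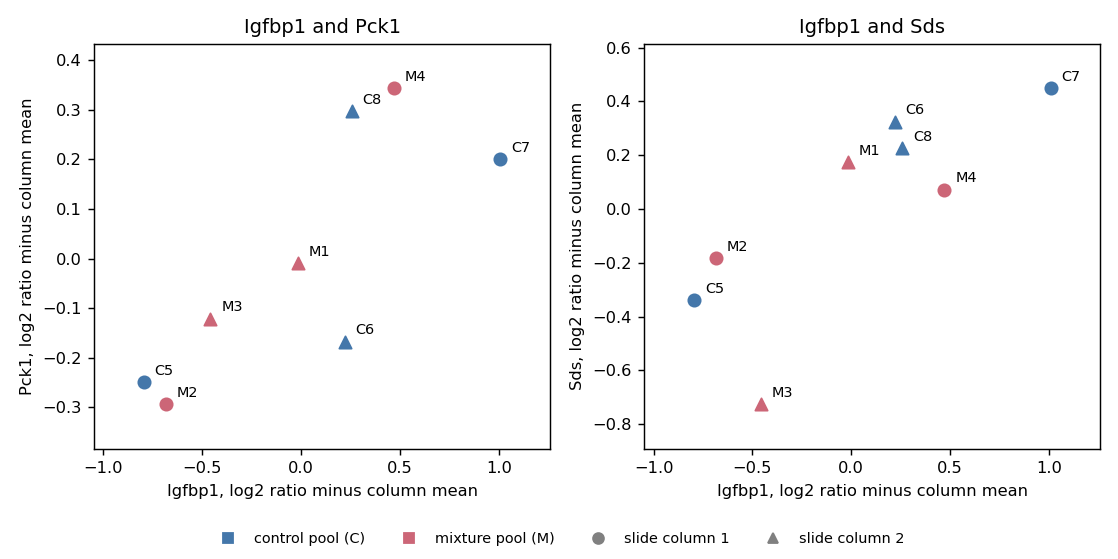
Igfbp1 (x axis) against Pck1 (left) and Sds (right), both in log2 ratio minus the mean of the array's slide column, with 1 point per pool, controls in blue and mixture pools in red, circles for column 1 and triangles for column 2. Control pool 5 and mixture pool 2 lie lowest in Igfbp1 and control pool 7 highest, with both groups spread along the axis.

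Igfbp4, a liver-secreted inhibitor of IGF action, measured 3.75, 2.59, 3.48 and 2.83 in control pools 5 to 8 and 2.24, 3.67, 2.50 and 3.64 in mixture pools 1 to 4. The pools of slide column 1 were all above those of column 2, irrespective of group. The difference between groups was -0.15 (SE 0.11, limma adjusted p = 0.90), being 0.035 in column 1 and -0.34 in column 2.

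Insr, the insulin receptor, was near the limit of measurement. One of its probes, A_64_P118402, was above background in neither channel on any array and was not tested. The other, A_64_P085396, was well above background on 4 control arrays but on only 2 mixture arrays, so it entered the test through the control group. It measured 0.45, 0.73, 0.72 and 0.53 in control pools 5 to 8 and 0.027, 0.45, 0.31 and 0.43 in mixture pools 1 to 4. Mixture pool 1 was the lowest, and mixture pool 2 overlapped with control pool 5. The difference was -0.30 (SE 0.11, unadjusted p = 0.0184, limma adjusted p = 0.65), from net Cy5 signals of 22 to 35.5 units in controls and 8.5 to 26 in mixture pools. With arrays only centred on their median it was -0.18, and from the processed signals -0.85.

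The position on the slide was also measured at each member. At 5 of the 13 tested probes the column difference had a limma adjusted p under 0.05, against 57% of all tested probes, and at 7 of 13 it exceeded the group difference, against 83.7%. Igfbp3 was 0.97 higher in column 2 than in column 1 (1.96-fold, adjusted p = 2.2e-05) and the Igfbp4 difference was -1.096 (2.14-fold lower, adjusted p = 5.1e-05). In Cy5 alone these column differences were 0.89 and -0.73. Probes of the same gene did not all share the sign. The column difference was 0.18, 0.58 and -0.34 at the Ghr probes A_43_P11817, A_44_P320858 and A_64_P041812, -0.053 and 0.52 at the Igf1 probes, and -0.59 and 0.41 at the Igfbp2 probes. Since each column held both groups equally, the column cancels from the group means, and leaving it out of the fit raised the SE at all 13 probes without moving the values.

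**Figure D4:**
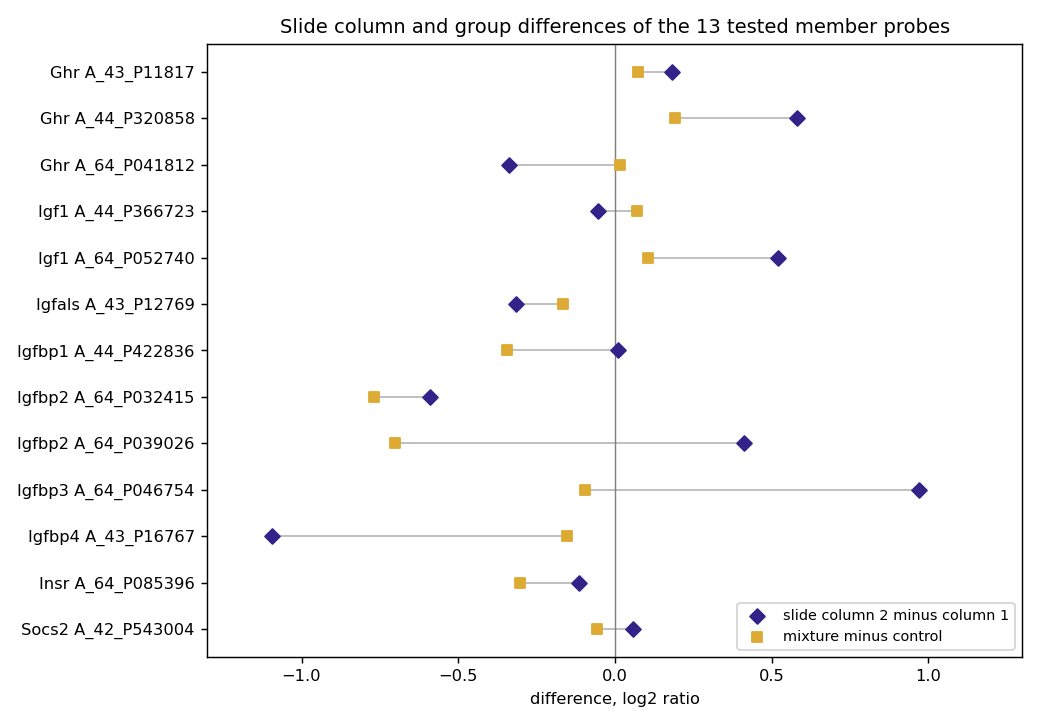
Difference in log2 ratio (x axis) of the 13 tested member probes between slide columns (column 2 minus column 1, blue diamonds) and between groups (mixture minus control, yellow squares). Igfbp3 and Igfbp4 have the widest column differences, 0.97 and -1.096, with group differences of -0.095 and -0.15.

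The rest of the pathway gave no called gene either when each gene was represented by its brightest probe. Among other IGF system genes, 4 of 15 listed were tested, 0 were called by limma and 1 was lower at an unadjusted p under 0.05. Over all tested probes 2.86% were lower at that threshold. Igf2, the fetal growth factor, was 3.82, 3.45, 2.39 and 3.98 in control pools 5 to 8 and 1.63, 2.43, 1.54 and 3.29 in mixture pools 1 to 4. Mixture pools 1 and 3 were the lowest and control pool 7 was close to mixture pool 2. Its difference was -1.19 (SE 0.42, unadjusted p = 0.0194, limma adjusted p = 0.66), and within columns 1 and 2 it was -0.25 and -2.13. Igf2 and the Igfbp2 probe A_64_P039026 had an r of 0.77 over the 8 arrays with column means taken out. With the same probe Igf2r had 0.80, Igfbp6 -0.46 and Htra1 -0.82, these being the remaining tested genes of the list. Group means were not taken out, so the group difference enters each r. Igfbp6, another binding protein, differed by 0.19 and Igf2r, the receptor that clears IGF2, by -0.10, with adjusted p-values of 0.90 and 0.92. Igf1r, the IGF1 receptor, did not pass the filter on background.

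Of 24 genes listed for growth hormone and prolactin receptor signalling, 12 were tested and 0 were called by limma. At an unadjusted p under 0.05 by limma 1 was lower, against 2.86% of all tested probes, and the median difference was -0.046. Stat3, a transcription factor shared with cytokine signals, differed by -0.31 (SE 0.11, unadjusted p = 0.0236). The liver factor Onecut1 and the phosphatase Ptpn6 differed by -0.45 and 0.13, and none of these 3 had a limma adjusted p under 0.69. Jak2, the kinase bound to the receptor, did not pass the filter on background. Of 40 genes listed for insulin and IGF receptor signalling, 26 were tested and 0 were called by limma. Again 1 was lower at an unadjusted p under 0.05, against 2.86% of all tested probes, and the median was -0.031. The smallest p-values there belonged to Pik3r1, a regulatory subunit of PI3-kinase, at -0.21 (unadjusted p = 0.0255), the adaptor Shc1 at -0.17 and the translation repressor Eif4ebp1 at 0.12, with limma adjusted p-values from 0.70 to 0.88.

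Liver transcripts that read out the growth hormone pattern had 16 listed genes, of which 8 were tested. In mixture pools 6 were higher and 2 lower, while 46.9% of all tested probes were higher. By limma 0 were called and 3 were higher at an unadjusted p under 0.05 (3.52% of all tested probes were). The median difference was 0.24, being 0.0042 in column 1 and 0.38 in column 2. Cyp2c11, the male-specific steroid hydroxylase, was 0.27 ± 0.17 in controls and 0.84 ± 0.34 in mixture pools (SD, n = 4), 0.57 apart (unadjusted p = 0.0025, limma adjusted p = 0.39), and every mixture pool was above every control. Cyp2c12, the female-specific counterpart in adult rats, was 0.76 apart (unadjusted p = 0.0406, adjusted p = 0.75). Within columns 1 and 2 the Cyp2c12 difference was -0.029 and 1.54. Cyp2c7, which growth hormone raises and which nuclear receptors also regulate, differed by 1.63 (SE 0.25, adjusted p = 0.10) at its brightest probe. Its Cy3 reference there differed by 0.40 as well. At 2 further Cyp2c7 probes the differences of 1.71 and 1.96 had adjusted p-values of 0.0304 and 0.0426, and these were among the 9 probes called on the array. Cyp2c genes are near-identical copies in part, so signal between them may not be fully separate. The other tested genes of the list were Sult2a1 at 0.44, Car3 at 0.044, Egfr at 0.015, Srd5a1 at -0.082 and Cyp3a2 at -0.24.

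Of the transcripts that respond to insulin or fasting, 9 of 11 tested genes were lower in mixture pools, with a median of -0.23. By limma 0 were called and 2 were lower at an unadjusted p under 0.05, against 2.86% of all tested probes. Among all tested probes 46.9% were higher in mixture pools. Angptl4, an inhibitor of lipoprotein lipase, differed by -0.30 (unadjusted p = 0.0306) and G6pc1 by -0.29, with limma adjusted p-values of 0.72 and 0.84. Fasn, which insulin induces, differed by 0.42 (adjusted p = 0.92) and Pck1 by -0.040 (adjusted p = 0.98).

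**Figure D5:**
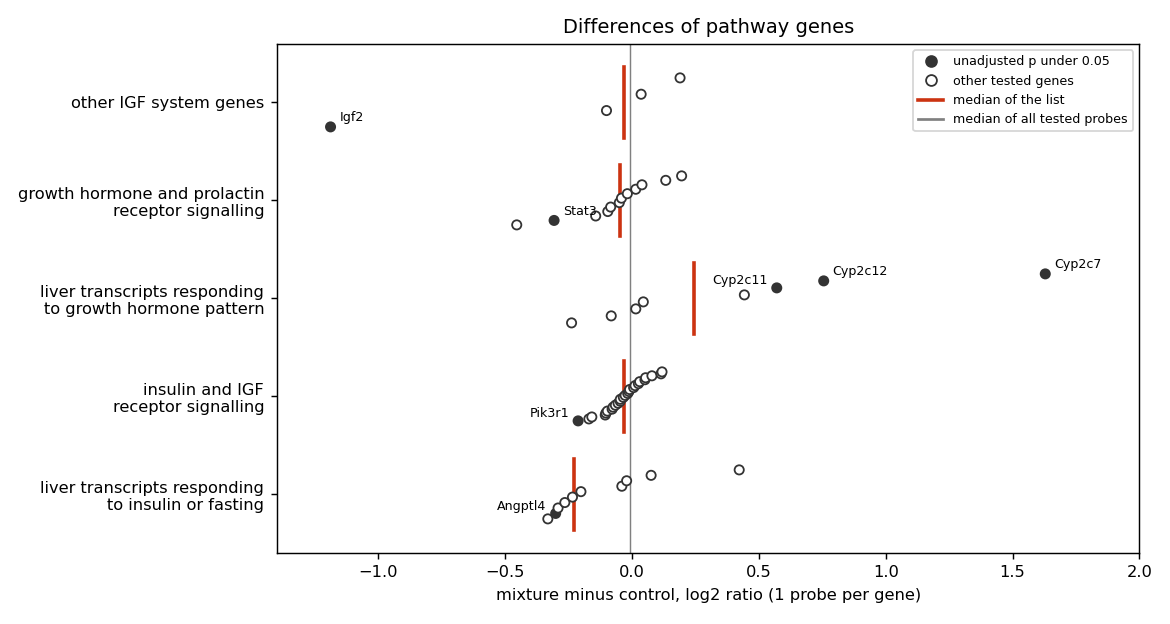
Difference between mixture and control pools in log2 ratio (x axis) of the tested genes in 5 pathway lists (y axis), with 1 gene of the insulin and fasting list not drawn, filled where the unadjusted p was under 0.05, with the median of each list in red and that of all tested probes in grey. The growth hormone pattern list has its median at 0.24 and the insulin and fasting list at -0.23. Each gene is drawn at its brightest probe. None of the probes drawn had a limma adjusted p under 0.05, whereas 2 further Cyp2c7 probes, not drawn, did.

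The genes whose pattern over the arrays was most like that of Igf1 (A_44_P366723), by Pearson r over 8 arrays with column means taken out, were Ier5 at 0.97, Hps6 at 0.95, Sqor at 0.94, Sfi1 at 0.93 and Slc28a2 at 0.93. For Igfbp1 they were Cdkn2aip at 0.97, Arap2 at 0.95, Proc at 0.94, Tmub1 at 0.94 and Ccpg1 at 0.94. Of the 6937 genes searched, 0.159% had an r over 0.9 with Igf1 and 0.259% with Igfbp1. Between probes of different members, r ran from -0.96 for Ghr (A_44_P320858) with Igfbp3 to 0.84 for Igfbp2 (A_64_P032415) with Igfbp3. Igf1 (A_64_P052740) had an r of -0.83 with Igfbp4 and -0.81 with the same Igfbp2 probe. Other probes of the same genes gave weaker values. Igf1 A_44_P366723 had an r of -0.159 with Igfbp4 and -0.347 with that Igfbp2 probe. With Igfbp3, Ghr A_43_P11817 had -0.605 and A_64_P041812 -0.509. These are extremes over many probe pairs on 8 arrays and were not tested.

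In bulk liver, fewer cells of a type and less RNA per cell cannot be told apart. The tissue label was borne out by 10 of 10 hepatocyte markers tested, led by Ttr at 8.80 in controls and 8.69 in mixture pools and Tf at 5.99 and 5.87. The summed normalised Cy5 signal of the hepatocyte markers was 923800 to 982100 in controls and 893100 to 985900 in mixture pools. Sums for Kupffer cell markers, 9 of 9 tested and led by C1qb and Clec4f, were 11930 to 13880 and 12050 to 15990. Endothelial markers, 4 of 5 with a probe and led by Kdr and Lyve1, summed to 2333 to 2979 and 2565 to 3064, with Tek above background on no array. For stellate cells and fibroblasts, 8 of 9 and led by Col3a1 and Col1a2, the sums were 8028 to 9179 and 7619 to 11710. Cholangiocyte markers, 4 of 4 with Krt19 and Epcam, summed to 388.2 to 425.2 and 383.2 to 460.3. Erythroid markers, 4 of 4 with Hba-a1 and Hbb, summed to 218800 to 309600 and 292400 to 330200. Lymphocyte markers, 3 of 6 with Cd3d and Ptprc, summed to 319.9 to 351 and 323.2 to 333.2, with Cd3e, Cd4 and Cd8a above background on no array. By limma 0 markers were called. At an unadjusted p under 0.05 there were 4 of 10 tested hepatocyte markers, 1 of 8 for stellate cells and 0 of the other types. Over all tested probes 2.86% were lower and 3.52% higher at that threshold. The median difference of the hepatocyte markers was -0.115. Ttr and Tf were not among the 4 (unadjusted p = 0.13 and 0.23 by limma). The part of cell makeup in the Igfbp2, Igfbp3 or Insr values was not tested.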

How the data were processed

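The members and the gene lists were chosen with earlier results of these data known, as was the slide column as a term. Per the file headers, Agilent Feature Extraction 11.0.1.1 made the deposited intensity columns, of which the median spot and background signals were used. The deposited log2 value table holds ratios of Cy5 over Cy3, made by steps not given in the sources used here. It correlated with loess ratios made without background correction with an r of 0.997 to 0.998 and a slope of 0.995 to 1, with column medians of -0.039 to -0.033; its centring is unknown. The table was an alternative.

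Scanner signals were processed in limma 3.58.1 under R 4.3.3, with normexp background correction (offset 50) and loess within arrays, control spots weighing nothing. Outlier spots (771 to 956 per array) were left out, none was saturated, and spots of a probe were averaged. A probe counted as above background on an array where over 50% of its spots did. Groups were compared with lmFit and eBayes with slide column, two-sided, with Benjamini-Hochberg adjustment. Gene names came from matching accessions to RefSeq (GRCr8), for 18005 of 30367 probes. Precision is limited by the number of arrays.

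Genes named were all members, the 3 smallest p-values of each list, the 2 brightest markers of each cell type, the 5 genes most like Igf1 and Igfbp1, and Cyp1a1; others named were chosen after their values were seen. One gene of the insulin and fasting list is not reported here by itself. Alternatives changed background, normalisation, filter, variance, channel, slide terms and replicates. No probe sequence or protein sequence was used here.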

Additional observations from a re-analysis of the deposited data

Results flagged for a closer look

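Igf2r, the receptor that clears IGF2, measured -0.926 in control pool 6 and -1.099 to -1.08 in the other 3 control pools (log2 ratio), a gap of 0.872 of the group's range, so that pool stood apart from the rest of its group. It was the only such value among 58 combinations of a named probe and a group, a check in which chance alone marks about 1 in 20.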

How the results depend on the processing

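No member probe was called under any of the 21 alternatives with a test. The count of called probes on the array, 9 in the reported fit, was 1 without the slide column, 0 with the slide row in its place (each row held 1 control and 1 mixture array), 8 with row and column together, 4 with a normexp offset of 16, 0 with processed signals, 5 with a trended and robust variance, 5 with the brightest probe per gene and 17 in Cy5 alone; it ran from 1 to 16 with 1 pool left out. At an unadjusted p under 0.05, 86 probes passed with the slide row and 914 with processed signals, by limma. The sign turned at Ghr A_43_P11817 with processed signals (-0.050) and over pools left out (-0.10 to 0.19), at Ghr A_64_P041812 with processed signals (-0.0049), the value table (-0.0097), Cy5 alone (-0.024) and pools left out (-0.19 to 0.14), at Igfals with processed signals (0.011), and at Socs2 with pools left out (-0.12 to 0.036). In slide column 1 alone the sign also turned at Ghr A_43_P11817 (-0.085), Ghr A_64_P041812 (-0.17) and Socs2 (0.084). In column 2 alone these 3 probes gave 0.23, 0.20 and -0.20. The cause was not tested. Both Igfbp2 probes and the Insr probe kept their sign throughout, with adjusted p-values of 0.438 to 1.00, 0.471 to 1.00 and 0.441 to 1.00. So did Ghr A_44_P320858, both Igf1 probes, Igfbp1 and Igfbp3, while Igfbp4 turned only in slide column 1 alone (0.035). The Insr probe had passed the filter only through the control group. Stat5b, Socs2 and Insr were limited by signal over background, and Igfals by its Cy3 reference signal. By replicate number, no paired analysis was possible because control and mixture pools share none; the fits with slide row, given above, are the ones that set 1 control array beside 1 mixture array.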
